A study of Arabidopsis thaliana with 12 samples.

Results

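This account covers 6 genes that are placed in or linked to plant mitochondria and were measured in roots of Arabidopsis thaliana. They are ETFQO (AT2G43400), GLDH (AT3G47930), AT5G47030, OSB1 (AT1G47720), AT4G39690 and AT5G02050. The genes were matched by locus to the platform annotation, which gives each of them 1 array feature of its own. They are 6 of the 692 features that the annotation assigns to 1 gene, among 3439 features in all, and 0 features of several genes hold any of them. They were selected on their function with their measured log2 difference between the genotypes already known, so that difference is described for them and is not a test of them.

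Total RNA of 12 samples was put on the array, with 6 samples of wild-type plants (WT) and 6 of the mutant kn09, all in the Wassilevskija ecotype. Roots of both genotypes had been treated for 48 h with MS medium that held 100 mM glucose, so no sample without glucose was compared. The labels call kn09 hypersensitive to proline and blocked in its breakdown in mitochondria, and do not name the gene that is affected. They do not say whether samples 1 to 6 of a genotype came from separate cultures, so p-values cover no more than the sample-to-sample spread, which may be technical.

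Mitochondria oxidise organic acids, amino acids and other fuels and pass the electrons to ubiquinone and on to oxygen along the respiratory chain of the inner membrane. The proton gradient built on the way drives ATP synthase. Proline breakdown feeds into the same chain, because proline dehydrogenase, a mitochondrial flavoenzyme, hands on the electrons it takes from proline. ETFQO and GLDH are further entry points for electrons, AT5G47030 encodes a subunit of ATP synthase, and the folds of the inner membrane that hold these complexes are kept in shape by MICOS, to which AT4G39690 belongs.

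Each value is an intensity relative to the brightest feature of its sample, which stands at 100 in all 12 samples. The median intensity of a sample was 0.139 to 0.227 in WT and 0.102 to 0.121 in kn09, and 153 to 235 features stood at exactly 0 in a WT sample against 398 to 522 in a kn09 sample. These differences run through the whole array and move with genotype, and their part in each gene's difference was not tested. Each gene is therefore given first as deposited and then after quantile normalization between samples, as a log2 difference of kn09 minus WT with its standard error (SE). Over all features the median of this difference was -0.85 as deposited and -0.06 after quantile normalization. Gene names are those of the annotation and were not checked against probe sequences, so a feature may not measure the gene it is named for. In 94 pairs of features that share an annotation the log2 differences correlated at r = -0.07 across pairs, but only 1 of these pairs has an annotation of 1 gene, so this says little about features such as the 6 described here. None of 8 root marker genes had a feature of its own, so the tissue label could not be checked with them. Of 6 marker genes of green tissue 1 had one, LHB1B2, a light-harvesting protein, with a median intensity of 35.8 in WT and 32.8 in kn09. Within its sample it ranked at percentile 99.5 to 99.8 of all features in WT and 99.4 to 99.7 in kn09. That is high for a green tissue gene in samples labelled as roots, and its cause was not tested.

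AT4G39690, the MICOS subunit, was lower in kn09 in every sample. Its WT samples 1 to 6 read 3.21, 3.35, 3.09, 3.56, 4.30 and 4.33, and its kn09 samples 1 to 6 read 1.16, 1.26, 1.50, 0.919, 1.97 and 2.08. The lowest WT sample thus lay above the highest kn09 sample, and samples 5 and 6 were the highest of each genotype. The mean intensity was 3.64 ± 0.548 in WT against 1.48 ± 0.462 for kn09 (SD, n = 6 each), a ratio of 2.46. After normalization the log2 difference was -1.17 ± 0.21 (SE), and the samples still did not overlap, with kn09 lower, as was the case for 3.37% of all features. Within its own sample the feature ranked at percentile 94.9 to 96.2 of all features in WT and at percentile 87.4 to 93.4 in kn09. When each sample was scaled to a common median instead, the log2 difference was -0.54 ± 0.31 (SE) and missed the threshold, so under these 3 scalings the size of the difference varied and its sign did not.

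**Figure D1:**
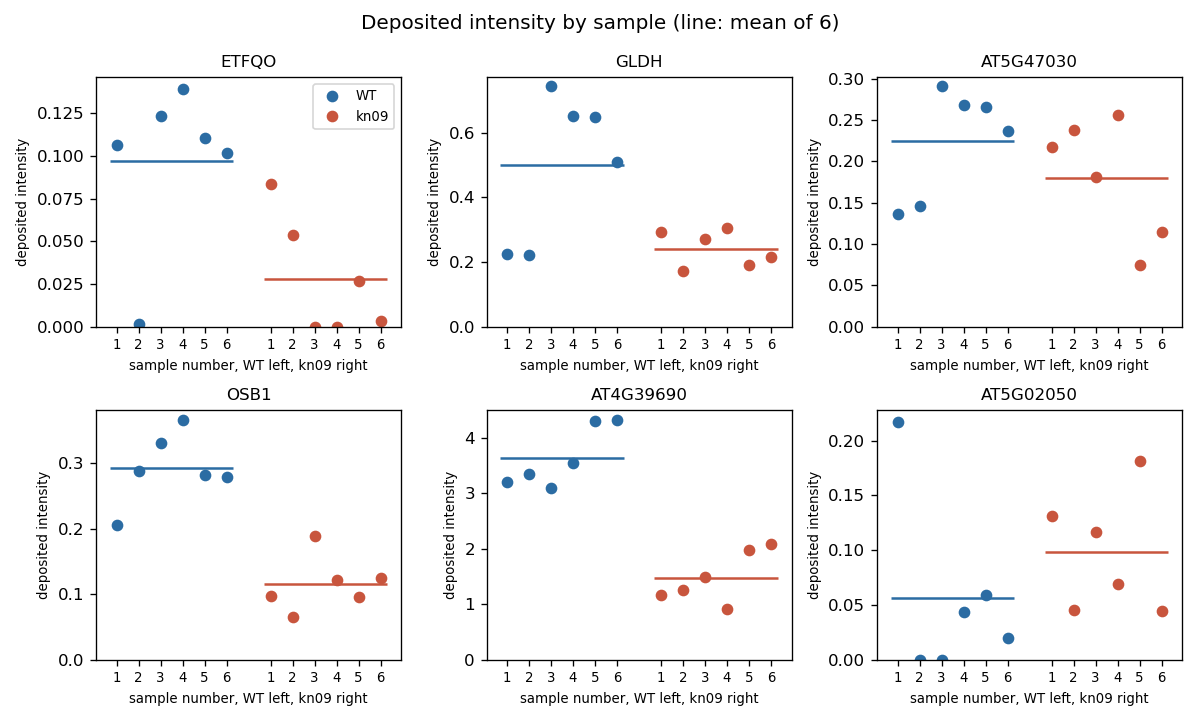
Deposited intensity (linear, brightest feature of a sample at 100) of the 6 genes in WT samples 1 to 6 (blue, left) and kn09 samples 1 to 6 (red, right), with a line at the mean of each genotype. AT4G39690 and OSB1 show no overlap between genotypes, GLDH and AT5G47030 are low in WT samples 1 and 2, and ETFQO reads 0 in kn09 samples 3 and 4.

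OSB1 encodes an organellar protein that binds single-stranded DNA and limits recombination of the mitochondrial genome. Its deposited intensity was 0.206, 0.288, 0.331, 0.366, 0.282 and 0.279 in WT samples 1 to 6, and 0.0972, 0.0646, 0.189, 0.122, 0.0958 and 0.125 in kn09 samples 1 to 6. All 6 kn09 samples lay below every WT sample, the closest being kn09 sample 3 and WT sample 1. Deposited intensities were lower in kn09 without overlap in 15.4% of all features. The mean was 0.292 ± 0.0541 in WT against 0.116 ± 0.0420 for kn09 (SD, n = 6 each). After normalization the log2 difference shrank from -1.39 ± 0.26 (SE) to -0.57 ± 0.23 (SE), and the genotypes overlapped, since kn09 sample 3 then stood at -2.12 on the log2 scale and WT sample 1 at -2.77. All 6 kn09 samples remained below the WT median of -2.02. Median scaling gave -0.59 ± 0.26 (SE), close to the quantile value.

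GLDH, the enzyme of the inner mitochondrial membrane that completes ascorbate synthesis and passes electrons to cytochrome c, separated WT into unequal sets of samples. WT samples 1 and 2 read 0.226 and 0.222, while WT samples 3 to 6 read 0.743, 0.650, 0.648 and 0.510. The kn09 samples 1 to 6 read 0.292, 0.172, 0.270, 0.304, 0.190 and 0.215, a range that holds WT samples 1 and 2 and lies below the other WT samples. The means were 0.500 ± 0.226 in WT against 0.240 ± 0.0554 for kn09 (SD, n = 6 each). The log2 difference was -0.93 ± 0.35 (SE) as deposited and -0.12 ± 0.40 (SE) with median scaling. After quantile normalization it was -0.25 ± 0.38 (SE), with WT samples 1 and 2, at -2.57 and -2.74, below every kn09 sample. Without these WT samples it was -0.88 ± 0.19 (SE), and without WT samples 3 and 4, or 5 and 6, it was 0.032 ± 0.43 and 0.044 ± 0.40 (SE). With any single sample left out it stayed negative, between -0.52 and -0.10. The size of the GLDH difference thus depended on which WT samples were kept, and the positive values were smaller than their SE.

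AT5G47030, a subunit of ATP synthase, had overlapping values throughout. Its intensity was 0.137 and 0.146 in WT samples 1 and 2 and 0.291, 0.268, 0.266 and 0.237 in WT samples 3 to 6. In kn09 samples 1 to 6 it was 0.217, 0.238, 0.181, 0.256, 0.0743 and 0.114. Low values thus occurred in WT samples 1 and 2 and in kn09 samples 5 and 6. The means were 0.224 ± 0.0664 in WT against 0.180 ± 0.0722 for kn09 (SD, n = 6 each). The log2 difference changed sign with the scaling, from -0.38 ± 0.35 (SE) as deposited to 0.43 ± 0.36 (SE) after quantile normalization and 0.43 ± 0.38 (SE) after median scaling. Without WT samples 1 and 2 it was 0.0034 after quantile normalization.

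ETFQO is the inner membrane enzyme that takes electrons from the electron transfer flavoprotein, which collects them from the breakdown of branched-chain amino acids and lysine, and passes them to ubiquinone. Its feature was dim. WT samples 1 to 6 read 0.107, 0.00163, 0.123, 0.139, 0.111 and 0.102, and kn09 samples 1 to 6 read 0.0837, 0.0535, 0, 0, 0.0269 and 0.00353. Apart from WT sample 2, every WT sample lay above every kn09 sample as deposited, and kn09 samples 3 and 4 were listed at 0. The means were 0.0973 ± 0.0488 in WT against 0.0279 ± 0.0344 for kn09 (SD, n = 6 each). After normalization WT sample 2 and kn09 samples 3 and 4 stood at the floor of -7.33 on the log2 scale, and the log2 difference was -0.97 ± 0.94 (SE), beside -2.27 ± 1.11 (SE) as deposited and -1.65 ± 1.10 (SE) with median scaling. With zeros as missing values it was 0.41 ± 1.05 (SE), without kn09 samples 3 and 4 it was 0.19, and without WT sample 2 alone it was -1.64. Neither the sign nor the size of the ETFQO difference was therefore fixed after normalization.

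AT5G02050, of the mitochondrial glycoprotein family, whose yeast relative is a protein of the mitochondrial matrix, was the gene with the largest positive difference among the 6, at intensities near the bottom of the scale. WT samples 1 to 6 read 0.217, 0, 0, 0.0438, 0.0590 and 0.0195. The kn09 samples 1 to 6 read 0.132, 0.0450, 0.116, 0.0688, 0.182 and 0.0446. WT sample 1 was the highest of all 12, the other WT samples lay at or below 0.0590, and no kn09 sample was at 0. The means were 0.0566 ± 0.0821 in WT against 0.0980 ± 0.0548 for kn09 (SD, n = 6 each), a ratio of 1.73 for kn09 over WT. The log2 difference was 2.50 ± 0.75 (SE) after quantile normalization, 1.88 ± 0.94 (SE) as deposited and 1.58 ± 0.63 (SE) with zeros as missing values. It was 0.79 with 0.1 added to every normalized value in place of a floor. With zeros kept at the value that quantile normalization gave them it was 6.25 ± 2.83 (SE). Of these settings, it passed the threshold in limma with the floor (adjusted p = 0.0492) and with 0.1 added (adjusted p = 0.0404). It missed the threshold as deposited (limma adjusted p = 0.132), with zeros as missing values (0.114) and with zeros kept (0.152). The sign was the same in all of these, but the size depended on how the zeros of WT samples 2 and 3 were treated. Quantile normalization also moved near-equal intensities apart, since 0.0438 in WT sample 4 became -5.81 and 0.0446 in kn09 sample 6 became -3.64.

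**Figure D2:**
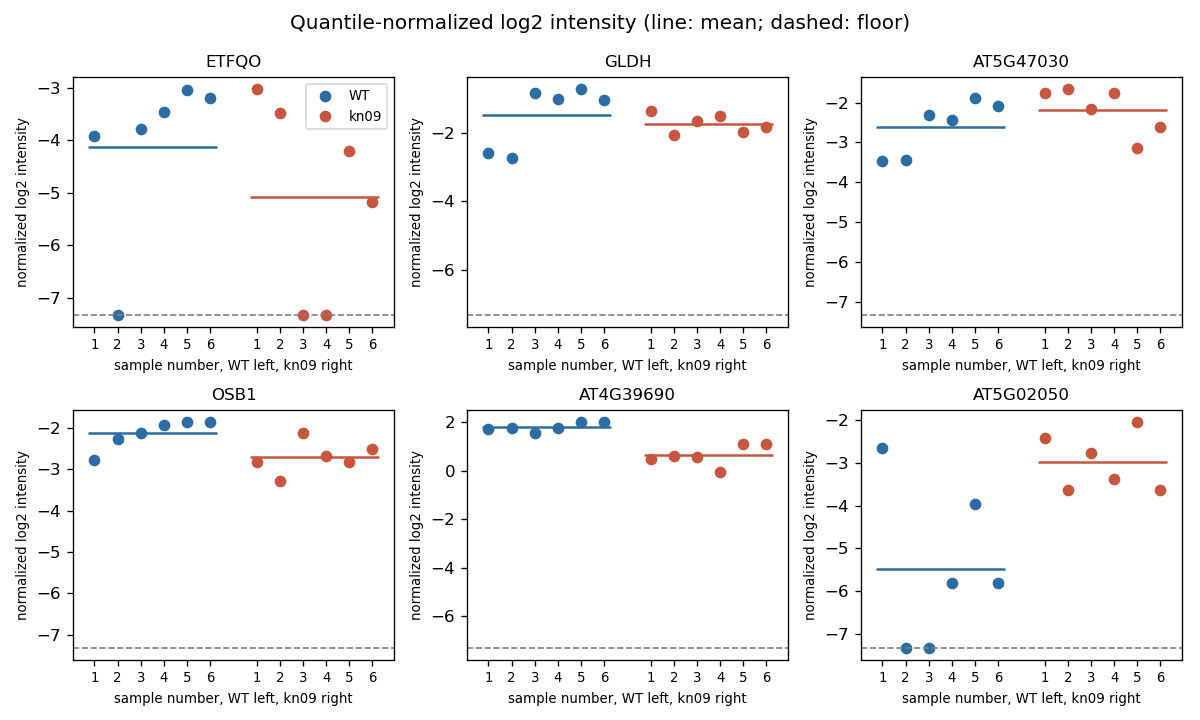
Quantile-normalized log2 intensity of the 6 genes in WT samples 1 to 6 (blue, left) and kn09 samples 1 to 6 (red, right), with a line at each mean and a dashed line at the floor of -7.33 for zeros and the lowest values. ETFQO has WT sample 2 and kn09 samples 3 and 4 at the floor, AT5G02050 has WT samples 2 and 3 there, and AT4G39690 is the only one of the 6 whose genotypes do not overlap.

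Across the 6 genes, 4 had a negative and 2 a positive log2 difference after normalization, with a median of -0.41 against -0.06 for all features. In the limma fit of all features, 1 of the 6, AT4G39690, passed an adjusted p of 0.05 as lower and 1, AT5G02050, as higher. Of all features 6.31% passed as lower and 6.48% as higher. Because the genes were chosen with this comparison known, their count is given beside that background and nothing is read from it. On the intensities as deposited AT4G39690 and OSB1 passed as lower, where 33.7% of all features did. With median scaling 0 of the 6 passed in limma, against 18.9% of all features in either direction, and 2 had an unadjusted p under 0.05, as did 34.0% of all features. In limma AT5G02050 stayed past the threshold without WT sample 1 but not when any other single sample was left out, whereas AT4G39690 stayed past it without any 1 of the 12 samples.

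**Figure D3:**
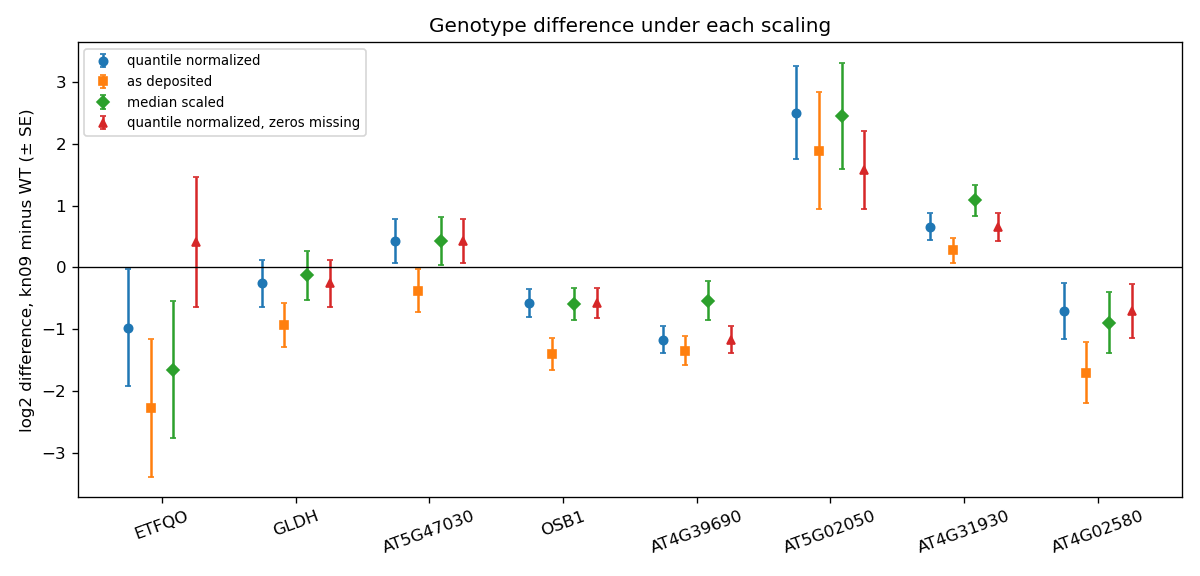
Log2 difference of kn09 minus WT (vertical axis, bars are ± SE) for the 6 genes and for 2 further listed genes, AT4G31930 and AT4G02580, under quantile normalization, as deposited, with median scaling, and with zeros as missing values. AT5G47030 changes sign between deposited and normalized values, ETFQO changes sign when zeros are missing, and AT4G39690 stays below 0 throughout.

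The position of the 6 genes among all features is shown by the histogram of log2 differences. GLDH and AT5G47030 lay in its centre and AT5G02050 in its upper tail.

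**Figure D4:**
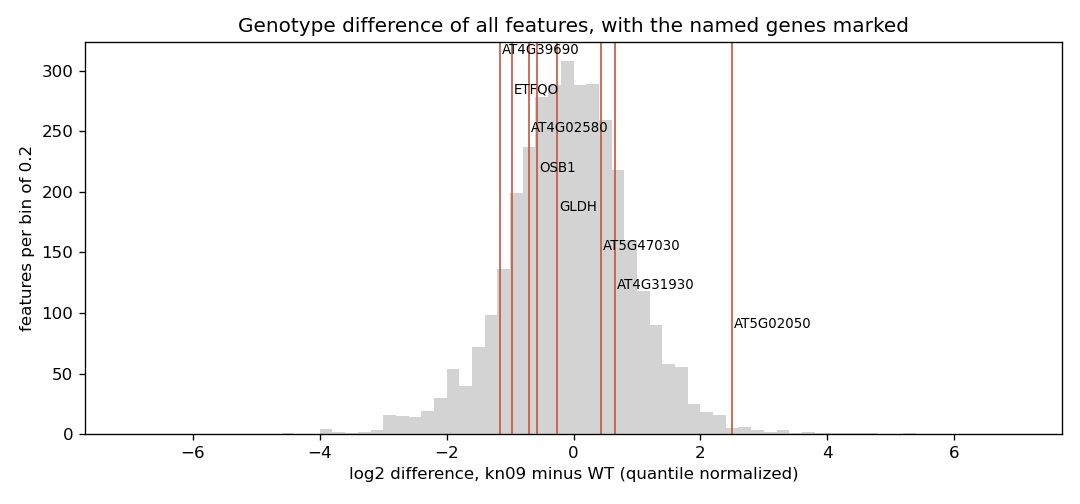
Log2 difference of kn09 minus WT after quantile normalization (horizontal axis) for all 3439 features (grey, features per bin on the vertical axis), with red lines at the 6 genes and at AT4G31930 and AT4G02580. AT5G02050 at 2.50 lies in the upper tail, and the other lines fall between -1.17 and 0.66.

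How far samples of a genotype lay apart differed between the genes. In the wild type, AT4G39690 had an SD of 0.18 and OSB1 of 0.36 on the normalized log2 scale, both below the median SD of 0.66 over all features. GLDH, at 0.92, and the dim features of ETFQO and AT5G02050, at 1.61 and 1.86, were above it. In kn09 the SD of GLDH was 0.27 and that of AT5G47030 was 0.59, beside a median of 0.59 for all features.

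Consecutively numbered WT samples (1 and 2, 3 and 4, 5 and 6) were closer to each other than other WT samples. The mean gap between the samples of such a pair was 0.11 on the log2 scale for AT5G47030, against 0.98 for other WT samples. For GLDH the gaps were 0.23 and 1.24, for AT4G39690 0.09 and 0.25, and over all features the median gaps were 0.42 and 0.84. AT5G02050 went the other way in WT, with 2.68 within pairs and 2.12 between other samples. For OSB1 the gaps in WT were 0.24 and 0.45, and for ETFQO 1.29 and 1.68. In kn09 the median gaps over all features were 0.55 and 0.70. There the gaps of ETFQO were 0.47 and 2.73, those of AT5G47030 0.35 and 0.78, and those of AT4G39690 0.25 and 0.57. Those of GLDH, at 0.32 and 0.34, and of OSB1, at 0.45 and 0.46, were nearly equal, and AT5G02050 again had the wider gap within pairs, at 1.14 against 0.74. Treating such pairs as a random block, 1 of the 6 genes, AT4G39690, passed in limma, where 2.38% of all features did. With means of pairs as 3 values per genotype 0 of the 6 passed in limma (0.465% of all features), while an unadjusted p under 0.05 was reached by 554 features (16.1%) in that fit, 2 of the 6 genes among them. For AT4G39690 the limma adjusted p was 0.0357 with the random block and 0.222 with means of pairs. Leaving out 1 sample is thus a limited check, as the other sample of its pair stays in.

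**Figure D5:**
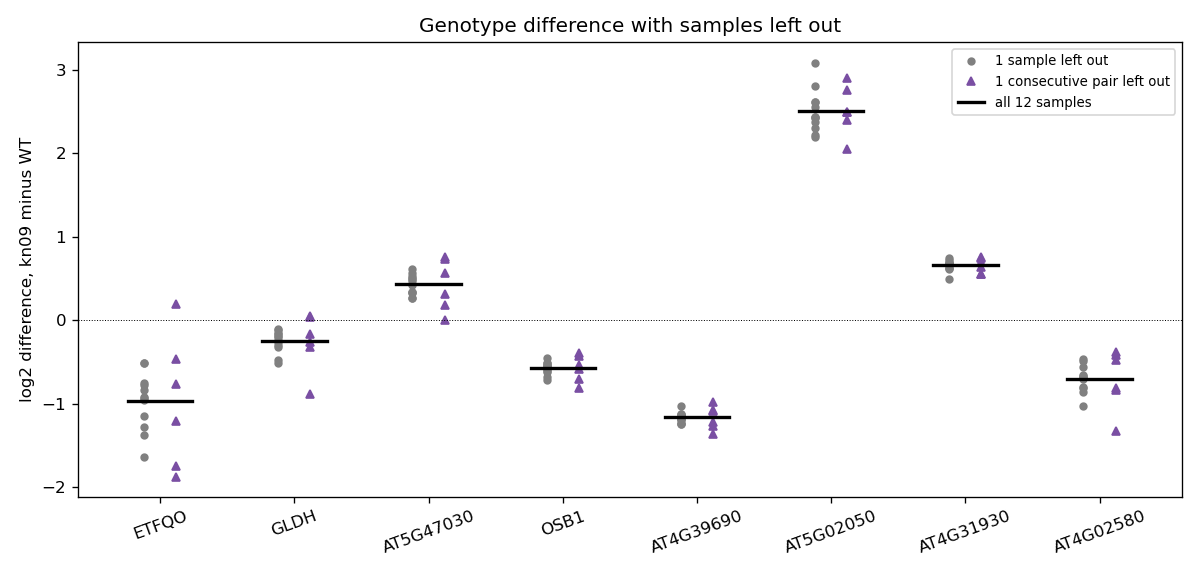
Log2 difference of kn09 minus WT after quantile normalization (vertical axis) with all 12 samples (black line), with each sample left out in turn (grey points) and with each consecutive pair left out in turn (purple triangles), for the 6 genes and for AT4G31930 and AT4G02580. AT4G39690 stays between -1.36 and -0.98, whereas ETFQO and GLDH cross 0 when some pair is left out.

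Leaving out WT samples 1 and 2 changed the call of GLDH and OSB1. Without them, GLDH passed as lower in limma with a log2 difference of -0.88 and OSB1 with -0.81, which neither did with all samples. AT4G39690, with -1.22, again passed as lower and AT5G02050, with 2.90, as higher, as both did with all samples. In the same fit 12.6% of all features passed as lower and 11.4% as higher. The number of features past the threshold was 827, against 440 with all samples, so the change ran through the whole array.

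The wider pathway could be followed only in part. Lists of 92 loci were drawn up for respiratory complexes I to IV, ATP synthase, alternative respiration, the electron transfer flavoprotein pathway, ascorbate synthesis, mitochondrial DNA maintenance, the mitochondrial glycoprotein family, MICOS and proline metabolism. Of these, 8 had a feature of their own, the 6 genes and 2 others, and 5 more lay only on features of several genes. None of the 6 loci of proline metabolism, the pathway that the labels connect with kn09, and none of the 14 loci of alternative respiration and uncoupling had one. Of the 8 measured loci 1 passed as higher and 1 as lower, the same 2 as above.

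AT4G31930, a second member of the mitochondrial glycoprotein family, was above 0 in all samples. Its WT samples 1 to 6 read 0.940, 0.835, 1.16, 0.518, 0.829 and 0.815, and its kn09 samples 1 to 6 read 1.03, 1.09, 0.907, 0.957, 0.940 and 1.11. As deposited the genotypes overlapped, with WT sample 3 the highest and WT sample 4 the lowest of all 12. After normalization every kn09 sample stood above every WT sample, as was the case for 4.83% of all features, and the log2 difference was 0.66 ± 0.22 (SE). It missed the threshold in limma with an adjusted p of 0.0678, and passed with median scaling at a log2 difference of 1.08 (limma adjusted p = 0.0116). It also passed when only features with a mean intensity of at least 0.1 were tested (limma adjusted p = 0.0386) and with 0.1 added (0.0306). It missed the threshold in limma with consecutive pairs as a random block (adjusted p = 0.264) and with means of those pairs (0.330). On the intensities as deposited the difference was 0.28 (limma adjusted p = 0.285).

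AT4G02580, a subunit of respiratory complex I that lies in its NADH-oxidising arm, read 0.166, 0.115, 0.546, 0.311, 0.205 and 0.298 in WT samples 1 to 6. In kn09 samples 1 to 6 it read 0.0754, 0.0205, 0.0826, 0.139, 0.117 and 0.0811. All kn09 samples lay below the WT median, and 4 of them lay below WT sample 2, the lowest of WT. The log2 difference of AT4G02580 was -0.70 ± 0.45 (SE) after normalization, with a limma adjusted p of 0.306. It was -1.70 as deposited (limma adjusted p = 0.0208) and -1.32 without WT samples 1 and 2 (limma adjusted p = 0.0303). In these fits 33.7% and 12.6% of all features passed as lower. A search of gene names for mitochondrial terms added NdhS and NdhN, which belong to the plastid NDH complex, with log2 differences of -0.55 ± 0.20 and 0.68 ± 0.23 (SE), neither past the threshold in limma (adjusted p = 0.0914 and 0.0677).

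For each of the 6 genes, the features of 1 gene whose samples deviated most alike from their genotype means were looked up, with Pearson's r over the 12 samples as the measure. These are the highest of 689 candidates each and are given as a description. GLDH was most like AT4G05030 (r = 0.96) and AT1G21660 (r = 0.94), with log2 differences of 0.05 and -0.19 beside its own -0.25. AT5G47030 was most like AT4G16410 (r = 0.89) and AT4G32340 (r = 0.87), with log2 differences of -0.88 and -0.69 beside its own 0.43. OSB1 was most like AT5G38750 (r = 0.89) and AT1G24360 (r = 0.86), with log2 differences of -0.92 and 0.69 beside its own -0.57. AT4G39690 was most like AT1G04330 (r = 0.80) and AT3G51320 (r = 0.80), with log2 differences of -0.29 and 0.36 beside its own -1.17, and AT3G51320 had 3 samples at 0. On ranks (Spearman) these correlations were unequal, at 0.49 with AT1G04330 and 0.85 with AT3G51320. ETFQO was most like AT3G54210 (r = 0.88) and AT3G51500 (r = 0.80), with log2 differences of -0.02 and 0.06 beside its own -0.97. On ranks both correlations were 0.74, and the ETFQO samples at the floor enter them. AT5G02050 was most like AT1G53050 (r = 0.85) and AT3G32930 (r = 0.74), with log2 differences of 2.14 and 1.31 beside its own 2.50. None of the 6 genes was among these features for another of them.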

How the data were processed

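Per the labels, total RNA of roots was measured. The deposited values are intensities, 1 for each feature in each sample. The authors' scanning, background correction and scaling are not given in the sources used here. The intensities are linear and lie between 0 and 100. There were 0 other columns of sample values. The number of arrays limits the precision.

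Intensities were quantile normalized in limma 3.58.1 (R 4.3.3), and zeros and values under the 1st percentile of positive normalized values (0.0062) were set to that floor before log2. Features were tested with limma (lmFit, eBayes, 2-sided, genotype as the only term) with Benjamini-Hochberg adjustment over all 3439, at an adjusted p of 0.05. The code was tested on simulated data. Groups and sample numbers came from the sample titles. Names came from the platform annotation, and 690 of 692 features with 1 gene were matched to RefSeq (TAIR10.1) by Entrez identifier. No coordinates are given, as the array's build is not known.

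The 6 genes, the lists and the alternatives, pairs of consecutive samples included, were chosen with earlier results of these data known. The named genes are the 6, every measured locus of the lists, the 2 features most like each, and of the genes found by name those past the threshold or else up to 4 with the smallest p. The name search used symbols and synonyms only, and protein and promoter features were not analysed here.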

Additional observations from a re-analysis of the deposited data

Results flagged for a closer look

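Normalized values were checked with Dixon's outlier rule in 22 sets of 6, each a gene in 1 genotype. In 2 sets a single sample stood far away from the rest, where chance gives about 1 in 20 for normally distributed values. That rate does not hold for sets with values at the floor, such as ETFQO. For ETFQO, WT sample 2 lay at the log2 floor of -7.33, with the other WT samples between -3.91 and -3.04, and its deposited intensity was 0.00163. For AT4G31930, WT sample 4 lay at -1.33, with the other WT samples between -0.43 and -0.10, and its deposited intensity was 0.518.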

How the results depend on the processing

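In limma, the count of 440 features past the threshold was 1257 on the intensities as deposited (99 higher, 1158 lower), 211 with the replicate block, 82 with consecutive pairs as a random block and 16 with means of those pairs, and it ranged from 192 (without WT sample 3) to 507 (without WT sample 2) with 1 sample left out and from 130 to 827 with 1 pair left out. The split was 451 higher against 199 lower with median scaling, and 298 against 204 when zeros were missing. Of the 8 measured list genes 2 passed, where 6.48% of all features passed as higher and 6.31% as lower. On the intensities as deposited 3 passed, all lower, where 33.7% of all features passed as lower. With 0.1 added 3 passed, beside 640 features in all. With median scaling 1 passed, AT4G31930, against 18.9% of all features. The number was 1 with zeros as missing (502 features in all) and 1 with zeros at their quantile value (515 in all). It was 1 with the random block (2.38% of all features) and 0 with means of pairs (0.465%). The range was 1 to 2 with 1 sample left out and 1 to 5 with 1 pair left out. AT5G47030 reversed on the intensities as deposited (-0.38), ETFQO with zeros as missing (0.41) and without kn09 samples 3 and 4 (0.19), and GLDH without WT samples 3 and 4 (0.032) or 5 and 6 (0.044). The reversed values of ETFQO and GLDH were smaller than their SE. With 1 pair left out ETFQO ranged from -1.87 to 0.19 and GLDH from -0.88 to 0.044. Across the 222 log2 differences of 8 genes under 28 alternatives, 185 kept their sign and side of the threshold, 24 lost the call, 8 gained it and 5 reversed. For AT5G02050 the limma adjusted p was 0.0492 with all samples and between 0.0117 and 0.0984 with 1 sample left out. For AT4G39690 it was 0.00773 with all samples and between 0.00913 and 0.0203 with 1 sample left out. It was 0.249 for AT4G39690 with median scaling and 0.222 with means of consecutive pairs. ETFQO and AT5G02050 had mean intensities under 0.1 and were not tested under the filter on low values. Samples of the same number in both genotypes had deviations correlated at 0.0683 to 0.0995 across features. Among the samples of the other genotype, the one of the same number correlated best in 6 of 6 cases. This is a hint from the data and not the design, and samples of the same genotype were not compared here. With the replicate block the same 2 genes passed, AT4G39690 with a limma adjusted p of 0.0292 and AT5G02050 with 0.0489. The cause of these changes was not tested. Values near the floor limit what can be said of ETFQO and AT5G02050.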
